A study of Mus musculus with 6 samples.

Results

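The 38 genes described here encode parts of the simple epithelium: 4 keratins, the junction proteins that hold epithelial cells together, and the factors that set epithelial transcription, splicing and polarity. They were chosen by name with earlier results of these data known, and every platform probe set with exactly 1 of their symbols was taken. The array carried 78 such probe sets for all 38 genes, of 15530 genes tested. Each gene was read from its brightest probe set, and all 38 passed the filter on dim probe sets, which left out 7 of their 78 probe sets. The study compared whole uteri of mice with Indian hedgehog (Ihh) alleles flanked by Cre target sites (Ihhf/f, 3 control samples) and of mice in which a Cre recombinase from the progesterone receptor locus had removed that gene (PRcre/+Ihhf/f, called Ihhd/d, 3 samples). The 6 uteri came from day -1 of an artificial decidual response, an experimental stand-in for implantation. Both groups carry these alleles, the labels give the Cre for the ablated group alone, and no age is given. The Cre is active in cells that express the progesterone receptor, and in this design a Cre effect and loss of Ihh cannot be told apart. Since separate mice are not stated for the replicates, p-values cover only the spread between these samples, technical or not. One label field names a different mouse model (SmoM2) for all 6 samples, against their titles, and was set aside.

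The uterine lumen and glands are lined by a single layer of epithelial cells whose keratins pair into filaments anchored at desmosomes. Tight junctions near the apical surface seal the layer, with claudins forming the strands and occludin, the Marvel proteins and the cytoplasmic plaque proteins organising them. E-cadherin and the grainyhead and ETS family factors maintain this state, while the repressors Zeb1, Zeb2, Snai1 and Snai2 oppose it at E-box sites. Ihh is itself made by this epithelium and acts on the stroma beneath, which returns signals to the epithelium.

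Control replicate 3 stood apart by skeletal muscle transcripts and Ihh-ablated replicate 2 by exocrine pancreas transcripts. The summed intensity of 8 skeletal muscle markers, a list chosen after seeing the values, was 9837 in control replicate 3 and between 631 and 958 in the other 5 arrays. That of 7 exocrine pancreas markers was 62625 in Ihh-ablated replicate 2 and between 837 and 2401 in the others. Adipocyte markers (6 genes) summed to between 1557 and 7126 in controls and between 5551 and 14851 in Ihh-ablated arrays. They were lowest in control replicate 1, which on average was also lowest in the 38 epithelial genes, and highest in Ihh-ablated replicate 3, which was highest in them. Oviduct and ciliated cell markers (5 genes) summed to 3816, 722 and 842 in control replicates 1, 2 and 3. Their sums in the Ihh-ablated arrays were 2640, 1547 and 1045. Ovgp1 made up most of the sum in control replicate 1 (3433.1). Foxj1, Tekt1 and Cdhr4 did not follow it, at 70.9 to 150.5 over all arrays. Results without control replicate 3 and Ihh-ablated replicate 2 follow those on all 6 arrays. The part of these tissues in the results was not tested.

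**Figure D1:**
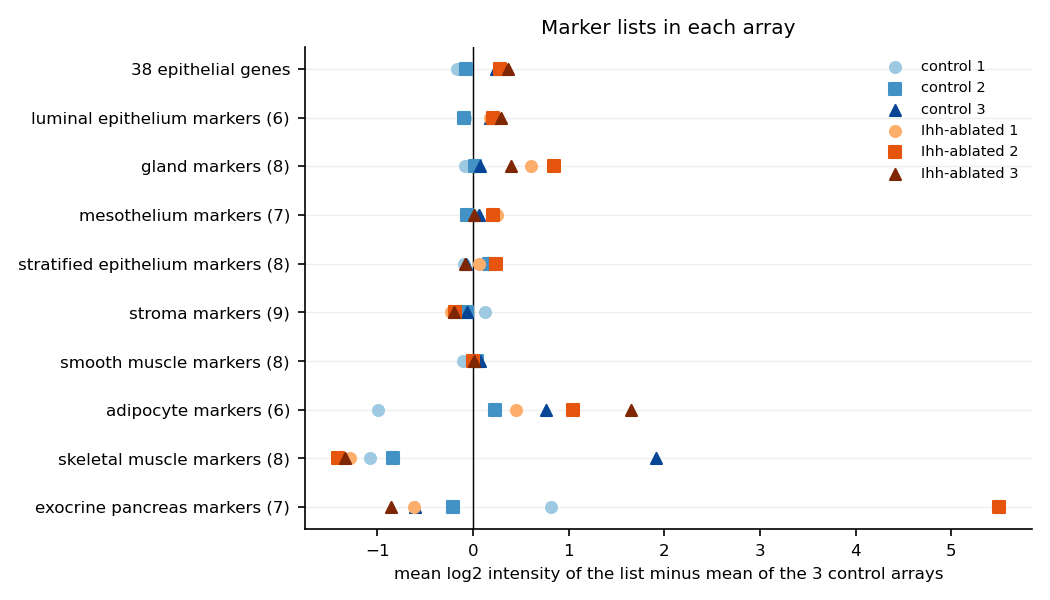
Mean log2 intensity of each list shown, in each array, minus the mean of the 3 control arrays (horizontal axis), with the number of genes in brackets. Oviduct and ciliated cell markers are not shown. Skeletal muscle markers are high in control replicate 3 alone, exocrine pancreas markers in Ihh-ablated replicate 2, and adipocyte markers are spread over all 6 arrays.

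Among the 38 genes, 2 rose in Ihh-ablated uteri and 0 fell at an adjusted p under 0.05 (Benjamini-Hochberg over all tested probe sets): Cldn10, a claudin of the tight junction, and Spint2, an inhibitor of surface serine proteases. Over all genes tested 2.81% passed, 1.28% in the higher and 1.53% in the lower direction. The log2 difference, Ihh-ablated minus control, was above 0 for 35 of 38 genes, against 43.3% of all genes, and its median was 0.27, against -0.04. At an unadjusted p under 0.05 there were 16 of the 38 and 3762 of all 15530 genes. In 13 of the 38 every Ihh-ablated array lay above every control array, and in 0 every one lay below, where 32.3% of all genes were separated in this way, 13.3% upwards and 19.0% downwards. In whole tissue, more epithelial cells and more RNA per epithelial cell cannot be told apart. With 3 arrays a group, an exact permutation test of any single value cannot go below a two-sided p of 0.1, so the adjusted p-values are those of the limma fit over all probe sets.

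**Figure D2:**
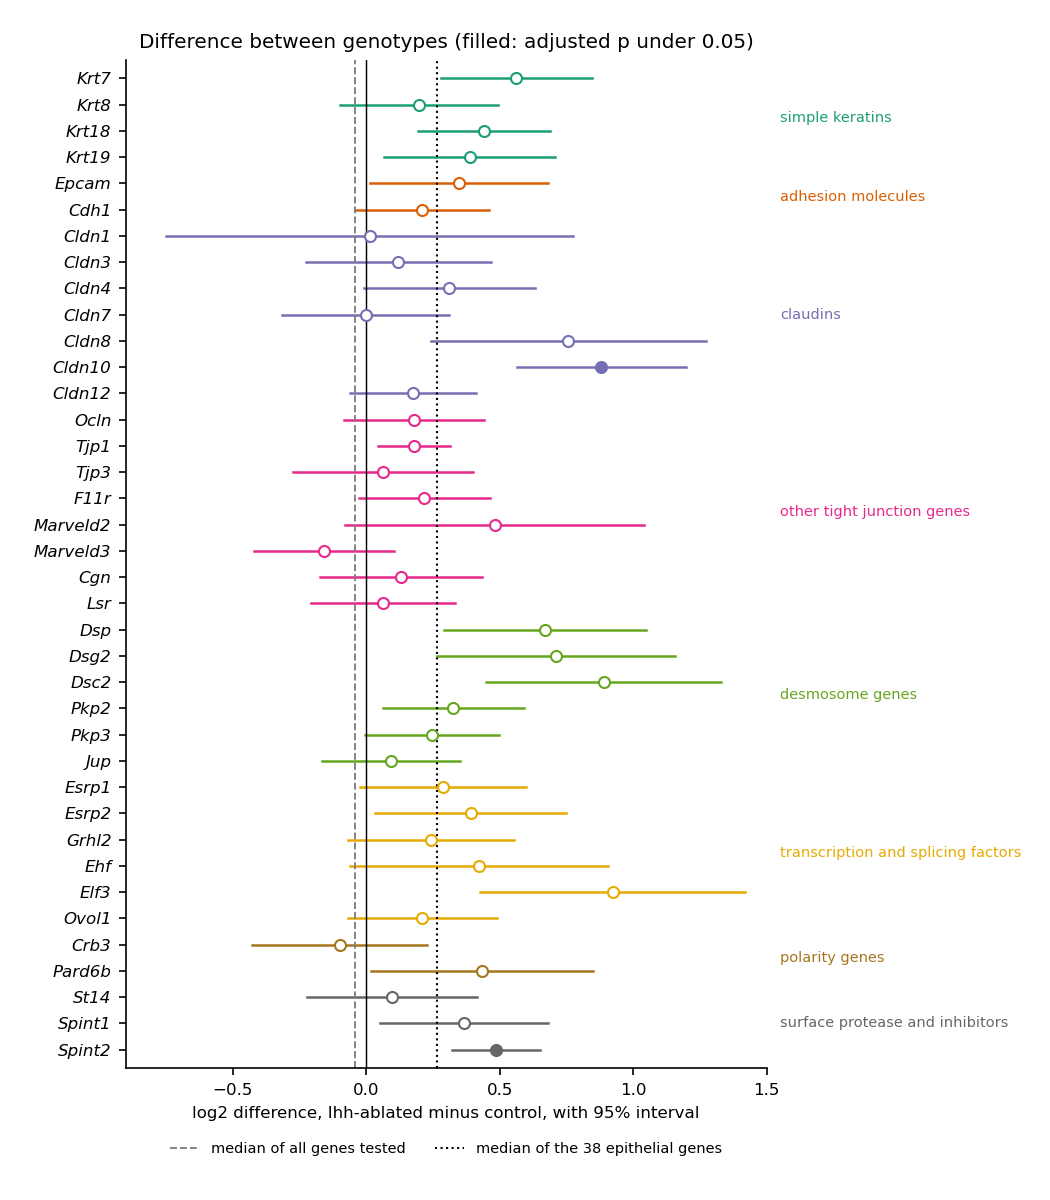
Log2 difference between genotypes (horizontal axis, Ihh-ablated minus control) for each of the 38 genes, grouped by role, with the 95% interval of the limma fit and filled points for an adjusted p under 0.05. Most points lie right of 0, Cldn10 and Spint2 are filled, and the median of the 38 genes (dotted, 0.27) lies right of that of all genes tested (dashed, -0.04).

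Values per array are the linear intensities the authors deposited, and values with 2 decimals are log2 differences, followed by the adjusted p in brackets. Cldn10 had intensities of 515.9, 672.0 and 588.2 in the control arrays and of 1301, 1068 and 915.5 in the Ihh-ablated arrays, in the order of replicates 1, 2 and 3. The groups were apart, and the lowest Ihh-ablated array stood well above the highest control array. The means were 592.0 ± 78.1 and 1094.9 ± 194 (SD, n = 3 each), a rise of 1.84-fold (log2 0.88, SE 0.14, limma adjusted p = 0.0167). The call was lost without control replicate 1 (0.79, adjusted p = 0.0813) and without Ihh-ablated replicate 1 (0.75, adjusted p = 0.0622), and over all alternatives tried the adjusted p ran from 0.00688 to 0.0813.

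Spint2, which encodes hepatocyte growth factor activator inhibitor type 2, had intensities of 1729, 1962 and 2058 in controls and of 2646, 2616 and 2771 in Ihh-ablated arrays. Its Ihh-ablated arrays lay close together and all above the controls. The means were 1916.1 ± 169 and 2677.7 ± 82.2 (SD, n = 3 each), a rise of 1.40-fold (log2 0.49, SE 0.07, limma adjusted p = 0.0138). A dimmer Spint2 probe set rose by nearly the same amount (0.48, adjusted p = 0.0494). The call of the brighter one was lost without control replicate 2 (adjusted p = 0.0512), Ihh-ablated replicate 1 (0.0625) or Ihh-ablated replicate 3 (0.0576), and without an intensity trend in the variance (0.0780). Spint1, the related inhibitor of the same proteases, had a log2 difference of 0.37 (adjusted p = 0.171), and St14, the membrane protease matriptase that both inhibit, had a log2 difference of 0.10 (0.689).

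The promoters of both genes, of the keratin pair Krt8 and Krt18, of Elf3 and of Lsr are shown because the E-box CAGGTG, which reads as CACCTG on the other strand, was common among these epithelial genes. Each window runs from 250 bases before to 50 bases after a RefSeq transcription start on GRCm38.p6, 5′ to 3′ on the gene's own strand, with each E-box in capitals. Cldn10 has a pair of starts, at chr14:118787621-118787920 and chr14:118854700-118854999 (both plus strand), and the probe set was not assigned to either. The others are Spint2 (chr7:29281928-29282227, minus strand), Elf3 (chr1:135258423-135258722, minus), Krt8 (chr15:102004293-102004592, minus), Krt18 (chr15:102027966-102028265, plus) and Lsr (chr7:30973420-30973719, minus).
Cldn10 upstream start: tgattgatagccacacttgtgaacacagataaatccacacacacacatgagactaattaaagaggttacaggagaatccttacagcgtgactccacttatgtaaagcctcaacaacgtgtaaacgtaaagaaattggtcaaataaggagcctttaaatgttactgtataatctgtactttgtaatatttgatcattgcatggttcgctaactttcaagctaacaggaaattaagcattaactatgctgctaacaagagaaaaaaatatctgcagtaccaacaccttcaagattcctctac
Cldn10 downstream start: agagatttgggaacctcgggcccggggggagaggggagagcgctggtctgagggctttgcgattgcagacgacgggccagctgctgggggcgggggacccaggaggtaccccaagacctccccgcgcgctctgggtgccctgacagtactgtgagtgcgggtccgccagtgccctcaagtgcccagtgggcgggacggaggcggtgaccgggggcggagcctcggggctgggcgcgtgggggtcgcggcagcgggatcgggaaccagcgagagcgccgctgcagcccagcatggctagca
Spint2: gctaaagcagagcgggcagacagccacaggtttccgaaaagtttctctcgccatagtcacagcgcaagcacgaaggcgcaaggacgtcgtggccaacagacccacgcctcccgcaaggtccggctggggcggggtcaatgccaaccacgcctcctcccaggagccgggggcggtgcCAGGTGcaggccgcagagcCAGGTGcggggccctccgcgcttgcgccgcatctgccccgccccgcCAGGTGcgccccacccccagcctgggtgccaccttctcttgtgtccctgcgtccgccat
Elf3: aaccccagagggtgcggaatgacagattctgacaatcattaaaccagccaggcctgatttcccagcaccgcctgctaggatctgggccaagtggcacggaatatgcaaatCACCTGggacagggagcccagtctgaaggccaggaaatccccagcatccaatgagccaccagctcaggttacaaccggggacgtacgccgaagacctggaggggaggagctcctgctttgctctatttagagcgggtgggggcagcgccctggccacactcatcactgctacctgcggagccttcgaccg
Krt8: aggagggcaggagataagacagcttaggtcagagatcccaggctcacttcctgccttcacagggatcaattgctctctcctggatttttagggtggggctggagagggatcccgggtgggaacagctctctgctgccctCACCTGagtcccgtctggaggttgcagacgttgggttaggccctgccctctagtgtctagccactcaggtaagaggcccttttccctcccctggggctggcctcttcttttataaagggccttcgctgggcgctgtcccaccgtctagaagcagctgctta
Krt18: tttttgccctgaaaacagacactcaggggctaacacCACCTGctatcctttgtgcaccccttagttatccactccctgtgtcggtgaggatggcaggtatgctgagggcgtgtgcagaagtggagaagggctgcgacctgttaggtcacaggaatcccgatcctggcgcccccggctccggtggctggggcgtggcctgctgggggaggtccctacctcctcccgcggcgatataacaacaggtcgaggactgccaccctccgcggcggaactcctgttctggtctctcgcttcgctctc
Lsr: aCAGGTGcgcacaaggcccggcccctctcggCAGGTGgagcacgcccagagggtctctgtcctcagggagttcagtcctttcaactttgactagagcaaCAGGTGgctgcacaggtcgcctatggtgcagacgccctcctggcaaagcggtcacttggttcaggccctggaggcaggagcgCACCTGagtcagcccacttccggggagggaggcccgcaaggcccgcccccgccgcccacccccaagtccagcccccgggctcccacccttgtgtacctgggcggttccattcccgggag

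RefSeq windows were given for 24 of the 38 genes, 32 windows in all. CAGGTG on either strand was present in 21 of the 32 windows (65.6%), against 6640 of 32851 windows of all genes (20.2%), and in at least 1 window of 17 of the 24 genes. The windows of the epithelial genes were richer in G and C (median 61.2%, against 52.7%). Among windows with 55 to 70% G and C alone, 17 of 23 held the E-box (73.9%), against 22.7% of all such windows. Spint2 had 3 copies and Elf3, Krt8 and Krt18 had 1 each, while both Cldn10 windows had 0. Lsr and the polarity gene Crb3, with 4 copies each, differed by 0.06 and -0.10 and did not pass. The median log2 difference was 0.31 over the 17 genes with the E-box and 0.18 over the 7 without it, and each set ranged widely, from -0.10 to 0.92 and from 0.01 to 0.88. The grainyhead motif AACCNGTT, also searched on both strands, was in 1 of 32 windows, that of the tight junction plaque gene Cgn, and in 2.09% of all windows. A match is a description of the letters and not of binding.

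Simple keratins, the intermediate filament proteins of single-layered epithelia, gave 0 calls among 4 (3 had an unadjusted p under 0.05), with all 4 differences above 0 (median 0.41). Of these Krt7 came closest to the threshold: it had intensities of 347.0, 357.3 and 446.8 in control arrays and 612.0, 580.2 and 502.1 in Ihh-ablated arrays, so that the groups did not overlap. Its difference was 0.56 (SE 0.13, adjusted p = 0.0572). Krt18, a type I keratin, had intensities of 2198, 2530.4 and 2993 in controls and 3327, 3248 and 3856 in Ihh-ablated arrays, again without overlap (0.44, adjusted p = 0.0769). Krt8, the type II partner with which Krt18 forms filaments, had intensities of 1646, 1837 and 2475 in controls and 2147, 2199 and 2397 in Ihh-ablated arrays. Here control replicate 3 was the highest array of all 6, and the difference was 0.20 (adjusted p = 0.375, 95% interval from -0.10 to 0.50). The other Krt8 probe sets both had a log2 difference of 0.25 (adjusted p = 0.268 and 0.304). Krt19, the smallest of the type I keratins, had intensities of 1051, 1114 and 1566 against 1456, 1608 and 1753 (0.39, adjusted p = 0.161), with control replicate 3 above 1 Ihh-ablated array. The start sites of Krt8 and Krt18 lie 23.9 kb apart on chromosome 15, on opposite strands.

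Epcam, an adhesion molecule of simple epithelia, had intensities of 902.1, 968.7 and 1418 in controls and 1403, 1343 and 1353 in Ihh-ablated arrays (0.35, adjusted p = 0.205). Its Ihh-ablated arrays agreed closely, and the control arrays were spread, with replicate 3 at the top of all 6. A dimmer Epcam probe set had a log2 difference of -0.13 (adjusted p = 0.567). Cdh1, which encodes E-cadherin of the adherens junction, had intensities of 1341, 1319 and 1636 in controls and 1620, 1468 and 1881 in Ihh-ablated arrays (0.21, adjusted p = 0.286, 95% interval from -0.04 to 0.46). Neither gene passed the test, and 1 of them, Epcam, had an unadjusted p under 0.05.

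Of the 7 claudins, the tetraspan proteins that set what passes between cells, 1 rose and 6 did not pass. After Cldn10 the largest difference was that of Cldn8, at 92.2, 59.5 and 118.3 in controls and 153.0, 128.0 and 160.0 in Ihh-ablated arrays. Its groups did not overlap, yet the spread was wide at this dim level (0.76, SE 0.23, adjusted p = 0.117). Cldn3 was among the brightest probe sets on the array, at the 99.2 percentile, and had a log2 difference of 0.12 (adjusted p = 0.642). Cldn4 had a log2 difference of 0.31 (0.230). Cldn7 had a log2 difference of 0.00 (0.996, 95% interval from -0.31 to 0.31) and Cldn12 0.18 (0.334). Among the claudins Cldn1 varied most between arrays, with 130.2 in Ihh-ablated replicate 2 and 376.2 in replicate 3, and its interval ran from -0.75 to 0.78. The differences of the claudins thus spanned from 0.00 to 0.88, and the test of Cldn10 against the other claudins was not run.

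The 8 other tight junction genes gave 0 calls (1 had an unadjusted p under 0.05), with 7 differences above 0 and a median of 0.15. Tjp1, the scaffold ZO-1, had the tightest arrays of these: 1597, 1604 and 1674 in the control uteri and 1799.5, 1827 and 1892 after Ihh ablation (0.18, SE 0.06, adjusted p = 0.141), without overlap. Marveld2 (tricellulin), found where 3 cells meet, had a log2 difference of 0.48 (adjusted p = 0.274), with 214.7 in control replicate 3 against 130.3 and 95.6 in the other controls. Occludin (Ocln) had a log2 difference of 0.18 (0.370) in its brighter probe set and 0.53 (0.171) in a nearly equally bright one. The junctional adhesion molecule F11r had a log2 difference of 0.22 (0.259), the plaque proteins Cgn 0.13 (0.562) and Tjp3 0.06 (0.811), and Lsr, the angulin that recruits tricellulin, 0.06 (0.767). Marveld3 had a log2 difference of -0.16 (0.422).

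Desmosome genes had the highest median of the roles, 0.50 over 6 genes. In 5 of the 6 the groups did not overlap, all upwards, against 13.3% of all genes. At an unadjusted p under 0.05 there were 4 of the 6 and 3762 of all 15530 genes, and 0 of the 6 passed. Dsc2 and Dsg2 encode the desmosomal cadherins that join neighbouring cells. Dsc2 had intensities of 172.5, 195.0 and 306.8 in controls and 439.0, 399.5 and 374.8 in Ihh-ablated arrays, 1.85-fold higher (0.89, SE 0.20, adjusted p = 0.0545). A dimmer Dsc2 probe set passed the test (0.71, adjusted p = 0.0485). Dsg2 had intensities of 298.4, 324.1 and 538.1 in controls and 655.6, 560.0 and 621.8 in Ihh-ablated arrays (0.71, SE 0.20, adjusted p = 0.101). Dsp encodes desmoplakin, which ties the plaque to keratin filaments, and it had intensities of 518.5, 455.1 and 762.2 against 845.4, 893.2 and 957.2 (0.67, SE 0.17, adjusted p = 0.0793). For all 3 of these genes control replicate 3 lay between the other controls and the Ihh-ablated arrays. The plakophilins Pkp2 and Pkp3, which cluster the cadherins, had a log2 difference of 0.33 (0.157) and 0.25 (0.224), both without overlap. Plakoglobin (Jup), shared with adherens junctions, had a log2 difference of 0.09 (0.627). Dimmer probe sets did not all go the same way, among them 0.02 for Dsp (0.915) and -0.20 for Dsg2 (0.372).

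Among the 6 transcription and splicing factors, all differences were above 0 (median 0.34) and 0 passed, with 2 at an unadjusted p under 0.05. Elf3, an epithelial ETS factor, had the largest difference of the 38 genes, with 365.6, 407.7 and 653.3 in controls and 857.3, 1090.1 and 710.0 in Ihh-ablated arrays (1.90-fold, log2 0.92, SE 0.22, adjusted p = 0.0685). The groups did not overlap, but control replicate 3 and Ihh-ablated replicate 3 lay close together. Ehf, another ETS factor, had a log2 difference of 0.42 (0.267), and Esrp1 and Esrp2, which impose the epithelial splicing programme, 0.29 (0.245) and 0.39 (0.189). Grhl2, the grainyhead factor that activates Cdh1 and claudin genes, had a log2 difference of 0.24 (0.316) in its brightest probe set and -0.19, -0.08 and -0.31 in the dimmer ones (lowest adjusted p 0.173). Ovol1, a zinc finger repressor, had a log2 difference of 0.21 (0.325) and, in a dimmer probe set, -0.40 (0.180). Of the polarity genes, Pard6b had a log2 difference of 0.43 (0.203), and Crb3 -0.10 (0.689).

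**Figure D3:**
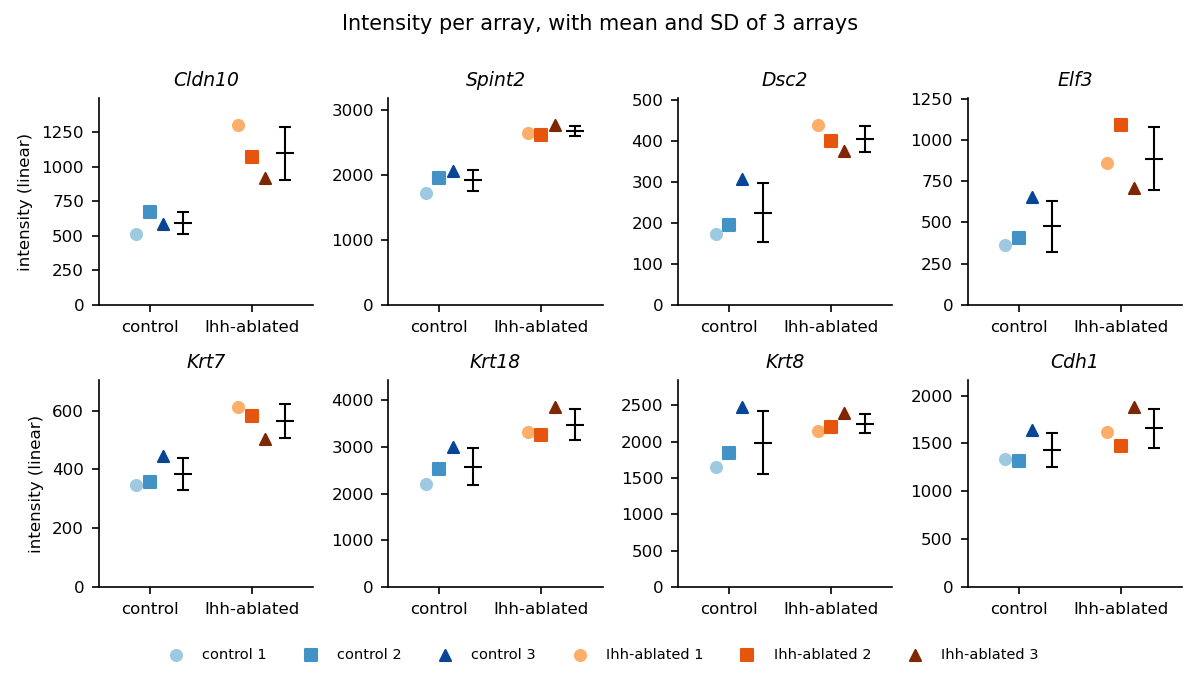
Intensity on a linear axis from 0 for 8 genes in every array, with the mean and SD of the 3 arrays of each genotype in black. Cldn10 and Spint2 separate the genotypes with control replicate 3 among the controls, whereas in Krt8 control replicate 3 (2475) is above all 3 Ihh-ablated arrays.

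The control arrays were not alike. Over all probe sets on the log2 scale, control replicate 2 had the lowest correlations, 0.9506 with Ihh-ablated replicate 3 and 0.9508 with replicate 2. Control replicate 3 correlated at 0.9847, 0.9779 and 0.982 with Ihh-ablated replicates 1, 2 and 3. With control replicates 1 and 2 it correlated at 0.982 and 0.9692. It was thus as close to Ihh-ablated replicates 1 and 3 as to control replicate 1. Control replicate 3 was the highest control array in 32 of the 38 genes (84.2%), against 30.0% of all genes tested, and control replicate 1 in 0 of the 38, against 22.9%. Averaged over the 38 genes, control replicate 3 lay 0.24 above the mean of the controls on the log2 scale, next to 0.33, 0.28 and 0.36 in Ihh-ablated replicates 1, 2 and 3, while control replicates 1 and 2 lay at -0.16 and -0.08. In 28 of the 38 genes (73.7%) control replicates 1 and 2 were both below all 3 Ihh-ablated arrays, as in 22.0% of all genes. In 15 of those 28 control replicate 3 was not, which is 39.5% of the 38, against 8.67% of all genes. For Cldn10 control replicate 2 was the highest control and replicate 3 lay at 0.00 from the mean of the controls. For Spint2 control replicate 3 was the highest control, at 0.11, and lay below all 3 Ihh-ablated arrays. It did so in 16 of the 38 genes (42.1%), against 24.9% of all genes.

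**Figure D4:**
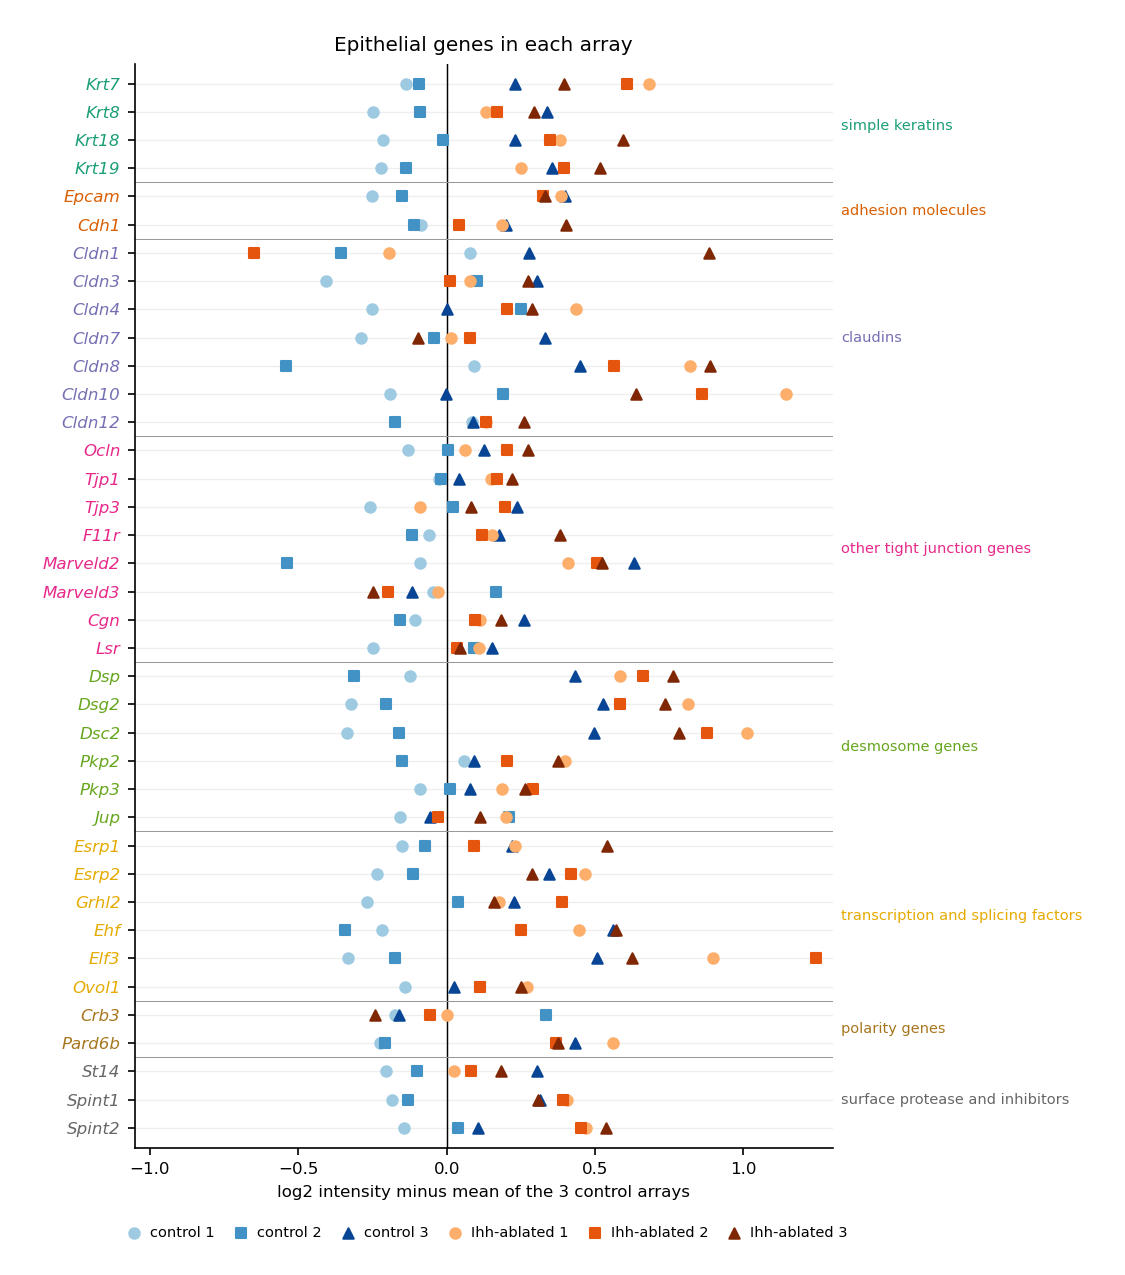
Log2 intensity of each of the 38 genes in each array, minus the mean of the 3 control arrays (horizontal axis). Control replicate 3 (dark blue triangles) falls within or above the Ihh-ablated arrays for Krt8, Epcam, Marveld2 and Ehf, and among the other controls for Cldn10.

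Leaving out control replicate 3 raised the number of genes called from 2 to 17 of 38 (44.7%), all of them higher in Ihh-ablated uteri, while 4.60% of all genes were called higher and 12.2% in either direction. These were Krt7, Krt8, Krt18, Krt19, Epcam, Cldn8, Cldn10, Marveld2, Dsp, Dsg2, Dsc2, Esrp2, Ehf, Elf3, Pard6b, Spint1 and Spint2. Without that array Dsc2 differed by 1.14 (adjusted p = 0.00233), Elf3 by 1.18 (0.00552), Epcam by 0.55 (0.00590) and Krt8 by 0.37 (0.0240). Leaving out each other array in turn gave between 0 and 2 calls, all of them higher. There was 1 call when control replicate 1 was dropped (0.212% of all genes were called higher) and 1 for control replicate 2 (0.393%). Dropping Ihh-ablated replicate 1 gave 0 calls (0.200%, although 11 of the 38 had an unadjusted p under 0.05), replicate 2 gave 2 (0.663%) and replicate 3 gave 1 (0.386%). The count without control replicate 3 compares 2 controls with 3 ablated samples. The median difference stayed between 0.21 and 0.36 over these 6 fits.

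**Figure D5:**
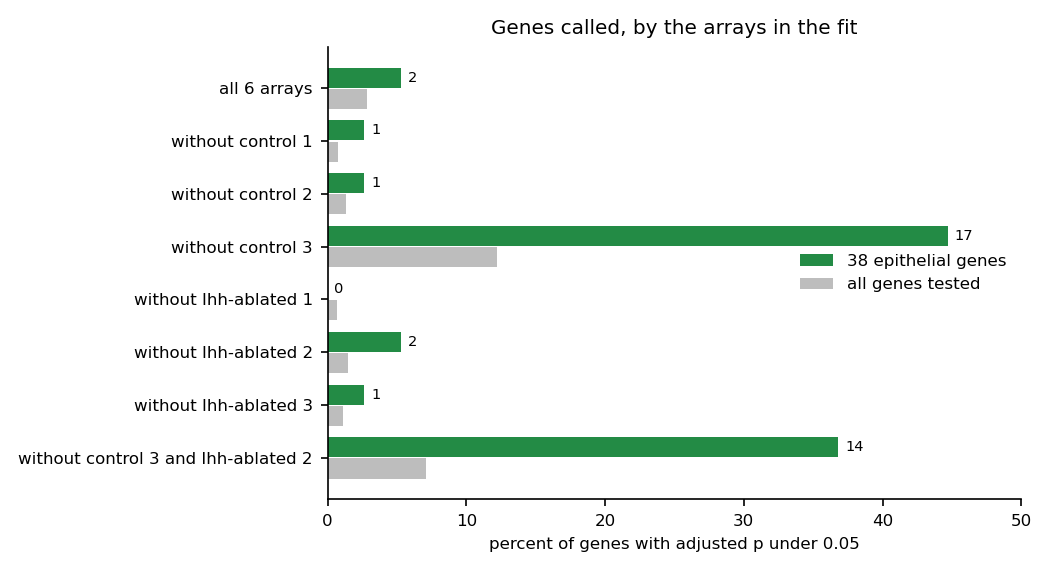
Percent of genes with an adjusted p under 0.05 (horizontal axis) among the 38 epithelial genes (green, with the number of genes) and among all genes tested (grey), for the fit on all 6 arrays and for fits without the named arrays. The green bar is longest without control replicate 3, at 44.7%.

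Without control replicate 3 and Ihh-ablated replicate 2, an alternative chosen with this pattern known, 14 of the 38 genes rose (2.96% of all genes were called higher) and 0 fell, Cldn10 (0.89, adjusted p = 0.0173), Spint2 (0.56, 0.00713) and Dsg2 (1.04, 0.00272) among them. In that fit of 2 against 2 arrays the 38 genes had a median of 0.41.

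Markers of epithelial compartments were read beside the 38 genes. Uterine tissue was evident from Pgr (2852 to 3463 over the arrays), Esr1 (4452 to 6175) and Hoxa11 (1990.4 to 2473). Luminal epithelium markers gave 1 rise in 6, that of Ltf (0.98), where 1.28% of all genes were called higher. Their median was 0.12, and the others that did not pass were Muc1 (0.50), Lgals3 (0.22), Calb1 (0.02), Lpar3 (-0.12) and Wnt7a (-0.25). Gland markers gave 4 rises in 7, Spink1 (1.62), Gpx3 (0.93), Sox9 (0.84) and Cxcl15 (0.79), where 1.28% of all genes were called higher. Their median was 0.79. Spink1 (1981), Gpx3 (3740.5) and Prss29 (474.0) were brightest in Ihh-ablated replicate 2, the array rich in pancreas transcripts. Sox9 (662.2) and Cxcl15 (1178.9) were brightest in Ihh-ablated replicate 1. The summed gland markers (8 genes) ran from 3425 to 4106 in controls and from 5835 to 8470 in Ihh-ablated arrays, without overlap. The sum of 8470 was that of Ihh-ablated replicate 2. Their mean log2 value in control replicate 3 lay 0.07 above the controls' mean, and that of the luminal markers 0.18 above it. In the gland list Spink1 was lowest of the controls in replicate 3 (256.3, against 502.1 and 468.8). Gpx3 (2016.9), Sox9 (411.1), Cxcl15 (780.6) and Foxa2 (239.4) were highest of the controls there, and Prss29 and Lif lay between the other controls. The mesothelium of the outer uterine wall also makes simple keratins. Its 6 tested markers gave 0 calls and 1 unadjusted p under 0.05, with summed intensities (7 genes) of 1307 to 1514 in controls and 1539 to 1607 in Ihh-ablated arrays, and a median log2 difference of 0.01. Of these Gpm6a was higher without overlap, at 50.6 to 76.4 in controls and 104.3 to 123.0 in Ihh-ablated arrays (0.77, adjusted p = 0.0587). Upk3b (0.29) and Wt1 (0.12) were also above 0, and Msln (-0.09), Upk1b (-0.13) and Muc16 (-0.14) below it. Stratified epithelium markers gave 0 calls and 1 unadjusted p under 0.05 in 7, with 4 differences above 0, 3 below and a median of 0.03. They ran from -0.25 for Krt4 to 0.47 for Krt14, and the basal cell factor Trp63 was at -0.12. The summed intensities of 1254 to 1431 in controls and 1286 to 1775 in Ihh-ablated arrays overlapped. Of 9 stroma markers 1 rose, Dcn (0.24, adjusted p = 0.0488), where 1.28% of all genes were called higher. In the same list 2 fell, Thy1 (-1.44, 0.00139) and Vim (-0.37, 0.0139), where 1.53% of all genes were called lower. The 9 markers summed to 39695 to 43896 in controls and 39215 to 40183 in Ihh-ablated arrays. Their mean log2 values, which weight all 9 equally, lay at 0.12, -0.06 and -0.06 from the controls' mean in control replicates 1, 2 and 3, and lower, at -0.23, -0.19 and -0.20, in the Ihh-ablated arrays. Thy1 was by far the lowest of the 9 in log2 difference, and Hand2 (-0.43) came next. The median over the 9 was -0.10, and 3 were above 0, Dcn, Pdgfrb (0.27, adjusted p = 0.119) and Lum (0.18, 0.202). The part of these cell types in the results was not tested.

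Other genes of the same epithelial machinery were read from lists chosen by function. Of 81 tested genes 0 passed in the limma fit, where 2.81% of all genes did. At an unadjusted p under 0.05 there were 20 of the 81 and 3762 of all 15530 genes. The median was 0.08, so these 81 genes lay nearer to the median of all genes than the 38 did, a difference that was not tested. Other junction and desmosome genes, among them claudins of other tissues and the catenins, had a median of -0.02 over 30. Beta-catenin (Ctnnb1) had a log2 difference of 0.05 (adjusted p = 0.539) and alpha-catenin (Ctnna1) 0.08 (0.467). The lowest p values in that list were those of the scaffolds Magi1 (-0.36, adjusted p = 0.145) and Magi3 (0.32, 0.155). Other keratins had a median of 0.25 over 9, led by Krt23 (0.68, adjusted p = 0.0734). Other epithelial transcription factors had a median of 0.21 over 13, led by Emx2 (0.45, 0.0767) and the gland factor Foxa2 (0.50, 0.0884). Other polarity and sorting genes had a median of 0.08 over 19, with 13 above 0. Those of lowest p were the polarity kinase Prkcz (-0.36, 0.135), Dlg1 (0.24, 0.146), Mal2 (0.75, 0.177) and Ap1m2 (-0.40, 0.185). Other surface and protease genes had a median of 0.25 over 10, with the mucin Muc1 at 0.50 (0.104) and Tmem30b at 0.54 (0.108). Without control replicate 3, 8 of the 81 rose (Krt15, Krt23, Emx2, Foxa2, Mal2, Muc1, Tspan8 and Tmem30b) and 2 fell, the coxsackie and adenovirus receptor Cxadr (-0.62, adjusted p = 0.0231) and the epithelial sorting adaptor Ap1m2 (-0.60, 0.00964). In that fit 4.60% of all genes were called higher and 12.2% in either direction.

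Different probe sets of a gene did not always go the same way. Of 33 dimmer tested probe sets of the 38 genes, 22 had the sign of the brightest one and 11 the opposite sign, and the 2 that passed were those of Dsc2 and Spint2. In all, 4 of 71 tested probe sets passed, against 2.14% of all probe sets. Across the arrays, median intensities over all probe sets ran from 121.4 to 142.5, with control replicate 2 at the top. That array was the highest control in 6 of the 38 genes, among them Crb3 and Marveld3, and in 47.1% of all genes. As a check of the genotype, Gli1 and Ptch1, which report Hedgehog signalling, fell (log2 -2.53 and -1.65, adjusted p = 0.000492 and 0.00146), and the single Ihh probe set, which may lie outside the deleted part, had a log2 difference of -0.43 (0.164).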

How the data were processed

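Biotin-labelled cRNA from total RNA of whole mouse uterus was read on Affymetrix Mouse Genome arrays, per the labels. The file deposited by the authors holds 1 processed intensity per probe set and array on a linear scale. How the authors summarised probes, corrected background and normalized the arrays is not given in the sources used here, so dim probe sets have no stated background. Groups and replicate numbers came from the sample titles. Of 45101 probe sets, 64 controls were left out, and genes were named from the 34945 with 1 platform symbol. Intensities under 16 were set to 16, log2 was taken, and the lowest 25% by mean were left out (33777 remained). The genotype difference was fitted in R 4.3.3 by limma 3.58.1 (lmFit, eBayes with an intensity trend), with Benjamini-Hochberg adjustment over all tested probe sets. A gene was read from its brightest probe set. Members and lists were chosen with earlier results of these data known. Per-array values were given for members that passed, for those without overlap and a difference of at least 0.5 and for Krt8, Krt18, Krt19, Epcam and Cdh1. Of the other epithelial lists, called genes and up to 4 of lowest p were named. Array values of Cldn1, Tjp1 and Marveld2, and the genes named from the marker lists, Ctnna1 and Ctnnb1, were chosen after their values were seen. The number of arrays limits precision. Promoter sequences are from RefSeq (GRCm38.p6). Figures were drawn with matplotlib 3.10.9.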

Additional observations from a re-analysis of the deposited data

How the results depend on the processing

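Quantile normalization, median-centred arrays, a floor of 64, no filter on dim probe sets and leaving out the lowest 50% each gave 2 epithelial genes called, the same Cldn10 and Spint2. Both were higher, where in that order 0.824%, 0.882%, 1.34%, 0.837% and 1.67% of all genes were called higher. The count of the 38 genes called was 1 without an intensity trend (1.46% of all genes), 4 with robust eBayes (3.50%), 6 with array weights (5.04%), 7 at an adjusted p of 0.10 (6.58%) and 4 with the mean of a gene's probe sets (2.81%), with 0 lower in any of them. The count of the 38 ran from 0 to 17 with 1 array left out. It was 14 without control replicate 3 and Ihh-ablated replicate 2 (7.12% and 2.96%), an alternative chosen with the outlying arrays known. All probe sets called numbered 724, and 374 without a trend, 1411 with array weights, 1852 at an adjusted p of 0.10, 1915 without both outlying arrays and from 156 to 3569 with 1 array left out. Calls among the 81 other epithelial genes, 0 on all arrays, numbered 2 with array weights, 3 at an adjusted p of 0.10, 1 with the mean of probe sets, 6 without both outlying arrays and from 0 to 10 with 1 array left out. The cause of these moves was not tested. With the replicate number as a block, 10 of the 38 genes rose (5.94% of all genes were called, 2.94% higher), and 2 other epithelial genes and 1562 probe sets were called. The replicate numbers share no stated pairing, and deviations of same-numbered arrays correlated at -0.15, -0.04 and 0.25. The median over the 38 genes ran from 0.21 to 0.41 over all settings. Signs turned only in small differences that did not pass, and the cause was not tested: with median-centred arrays Cldn7 read 0.090, with array weights Cldn1 -0.227, Cldn7 0.056 and Crb3 0.037, with the mean of probe sets Grhl2 -0.088 and Ovol1 -0.095, and without both outlying arrays Cldn7 0.125. With 1 array left out, Cldn1 ran from -0.421 to 0.344, Cldn3 from -0.081 to 0.272, Tjp3 from -0.067 to 0.181, Lsr from -0.062 to 0.139, St14 from -0.006 to 0.249, Cldn7 from -0.145 to 0.164 and Crb3 from -0.185 to 0.068.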

Other observations

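Mesenchymal regulators, several of which repress epithelial genes, were read in the same fit. Of 10 tested genes 2 fell in Ihh-ablated uteri, Twist2, a transcription factor of mesenchymal cells, and Vim, the mesenchymal intermediate filament vimentin, where 1.53% of all genes were called lower. An unadjusted p under 0.05 was found for 8 of the 10 and for 3762 of all 15530 genes. The 3 genes above 0, Zeb2, Twist1 and Cdh2, were among those 8. The median log2 difference of the 10 was -0.18. Control arrays gave 846.9, 789.7 and 674.1 for Twist2, and Ihh-ablated arrays 466.8, 474.0 and 467.8 (log2 -0.71, limma adjusted p = 0.0114), with Ihh-ablated arrays nearly equal and all below the controls. Vim differed by -0.37 (adjusted p = 0.0139). Snai1, a repressor of Cdh1, was at 211.2, 210.1 and 145.8 in the control group and at 122.0, 96.1 and 115.2 after ablation (-0.75, adjusted p = 0.0606), which did not pass although the groups did not overlap. Of the control arrays, replicate 3 lay nearest to the Ihh-ablated arrays for Twist2 and Snai1. It was the highest control array in 32 of the 38 epithelial genes, though not in Cldn10. Zeb2 was higher without overlap, by 0.39 (adjusted p = 0.0961), and so was Twist1, by 0.31 (0.197). Log2 differences were -0.06 for Zeb1 (0.586), -0.07 for Snai2 (0.730) and, without overlap, -0.28 for Fn1 (0.0968). They were 0.47 for N-cadherin, Cdh2 (0.181), and -0.33 for cadherin 11, Cdh11 (0.185). Of the 10 genes 3 were above 0 and 7 below, and only Twist2 and Vim passed.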
